A study of Mus musculus with 30 samples.

Results

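The genes described here are 42 members of fatty acid metabolism: 17 that make, elongate or desaturate fatty acids (the synthesis arm), 5 acyl-CoA synthetases, 11 genes of carnitine transport and mitochondrial beta oxidation (the oxidation arm), 3 regulators and 6 genes of triglyceride assembly and lipid droplets. They were taken by symbol from a count table of 39017 genes, all 42 were found, and all 42 passed the filter on low counts that left 15627 genes for testing. RNA-seq counts were measured in βTC3, a mouse insulinoma line derived from pancreatic beta cells, to follow activin B and its receptor ALK7, encoded by Acvr1c. Of the 5 lines, the control line carried plasmid PB-33 alone, the ALK7 line a doxycycline (DOX) inducible wild-type receptor on PB-33, and the ALK7-DN line an inducible dominant negative receptor on PB-33. The sh2 and sh1/2 lines carried inducible hairpins against Acvr1c on plasmid PB-31. No PB-31 line without a hairpin was among these samples, so the hairpin and the plasmid cannot be told apart. Every well received DOX at 1 µg/ml for 24 h, the controls included, and each line was sampled with DOX alone and with DOX plus activin B at 50 ng/ml for 24 h, in 3 libraries per group. The libraries came from wells of a line plated in triplicate, so a p-value here reflects how far those wells varied, and that variation may be technical only.

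Fatty acid synthesis turns cytosolic acetyl-CoA into malonyl-CoA and then into palmitate, which elongases lengthen and desaturases unsaturate. Oxidation runs the other way in mitochondria: acyl-CoA synthetases activate a fatty acid, carnitine palmitoyltransferases carry it across the membrane, and a spiral of dehydrogenation, hydration, dehydrogenation and thiolysis shortens it. Malonyl-CoA, the product of the first committed step of synthesis, inhibits carnitine palmitoyltransferase at the outer membrane, and this link between glucose and fat is a classical element of insulin secretion in beta cells.

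The libraries held 18904884 to 34740789 counts. Acvr1c, the targeted gene, stood at 165 ± 6.34 CPM (counts scaled to a common library size; SD, n = 3) in control cells with DOX alone, at 154 ± 11 in ALK7, 161 ± 7.50 in ALK7-DN, 68.5 ± 12.8 in sh2 and 55.3 ± 8.0 in sh1/2 cells, so its counts showed the knock-down and did not show either expression construct. Activin B libraries of ALK7-DN and DOX libraries of sh2 were of batch 2 and all others of batch 1, so batch and treatment cannot be told apart in these 2 lines. With activin B, control, sh2 and sh1/2 libraries were all of batch 1. There Acvr1c stood at 101 ± 8.05, 42.7 ± 1.79 and 26.7 ± 1.26 CPM. Its mean was lower with activin B than with DOX alone in every line. Of the 30 libraries 3 stood apart by base composition. Each gene's log2 CPM was set against its mean over all libraries, and the median of the 25% of genes richest in exonic GC minus that of the 25% poorest was -0.60 in sh1/2 DOX library 1, -0.71 in sh1/2 DOX library 3 and -0.58 in control activin B library 2, against -0.18 to 0.31 in the other 27, with 0.14 in sh1/2 DOX library 2. Where leaving out these 3 ended the call of a member or moved a printed and called value by over 1.5 times, that is stated with the result. With them left out, sh1/2 DOX is a single library assumed to vary like the other groups. All 10 beta cell markers reached 1 CPM, with summed levels of 12552 to 23433 CPM per library, and 0 of 7 adipocyte and 0 of 6 acinar markers did. Of 7 hepatocyte markers 3 did, led by Ttr, which islet cells also make, with a mean summed level of 374 CPM in sh1/2 against 174 CPM in control cells under DOX alone. As in any bulk measurement, fewer cells of a type and less RNA per cell cannot be told apart.

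Promoters of 5 members are shown because their genes carry the main patterns: Acly rose and Elovl6 fell with activin B in all 5 lines, Cpt1a responded differently between lines, Fasn is the textbook lipogenic promoter, and Hadha shares its window with Hadhb, its divergent partner. Each runs 5′ to 3′ from 250 bases before to 50 bases after the gene start in RefSeq on GRCm38.p6. Capitals mark CCAAT, the core bound by NF-Y, and GGGCGG, the GC box, on either strand. Acly lies on the minus strand at chr11:100527951-100528250, Fasn on the minus strand at chr11:120824498-120824797, Elovl6 on the plus strand at chr3:129532136-129532435, Cpt1a on the plus strand at chr19:3323051-3323350 and Hadha on the minus strand at chr5:30154931-30155230.
Acly: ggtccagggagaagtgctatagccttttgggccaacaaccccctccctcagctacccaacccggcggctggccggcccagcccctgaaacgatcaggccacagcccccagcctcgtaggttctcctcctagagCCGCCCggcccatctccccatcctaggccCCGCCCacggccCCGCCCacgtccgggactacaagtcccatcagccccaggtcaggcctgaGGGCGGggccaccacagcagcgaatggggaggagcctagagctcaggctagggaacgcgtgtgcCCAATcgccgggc
Fasn: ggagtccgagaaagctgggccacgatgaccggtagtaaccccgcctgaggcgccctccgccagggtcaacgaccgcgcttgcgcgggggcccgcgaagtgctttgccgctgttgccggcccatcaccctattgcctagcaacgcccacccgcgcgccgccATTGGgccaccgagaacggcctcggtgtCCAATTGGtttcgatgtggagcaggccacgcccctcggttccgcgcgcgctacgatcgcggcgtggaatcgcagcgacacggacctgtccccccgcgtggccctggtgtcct
Elovl6: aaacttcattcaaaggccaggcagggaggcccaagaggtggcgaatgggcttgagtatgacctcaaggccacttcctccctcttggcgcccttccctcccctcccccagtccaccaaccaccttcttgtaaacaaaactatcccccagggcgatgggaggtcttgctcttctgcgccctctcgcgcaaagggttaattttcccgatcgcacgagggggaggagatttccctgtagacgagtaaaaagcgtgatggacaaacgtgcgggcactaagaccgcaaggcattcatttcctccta
Cpt1a: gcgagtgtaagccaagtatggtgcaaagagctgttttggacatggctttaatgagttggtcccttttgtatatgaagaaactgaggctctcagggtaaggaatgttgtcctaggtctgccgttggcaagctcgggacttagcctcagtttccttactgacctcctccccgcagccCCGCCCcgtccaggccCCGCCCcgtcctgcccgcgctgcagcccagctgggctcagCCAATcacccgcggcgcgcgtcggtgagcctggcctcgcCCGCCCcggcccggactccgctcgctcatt
Hadha: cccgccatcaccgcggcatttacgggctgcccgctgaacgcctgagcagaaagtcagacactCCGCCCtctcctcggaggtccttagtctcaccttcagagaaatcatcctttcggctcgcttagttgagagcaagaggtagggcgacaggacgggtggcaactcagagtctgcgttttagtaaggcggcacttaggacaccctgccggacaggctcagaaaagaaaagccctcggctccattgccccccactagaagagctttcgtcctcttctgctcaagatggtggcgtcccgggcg
The Acly window held 1 CCAAT and 4 GGGCGG, Fasn 3 CCAAT of which 2 overlap, Cpt1a 1 CCAAT and 3 GGGCGG, and Hadha 1 GGGCGG. Elovl6 held neither of them. The Hadha and Hadhb windows shared 228 bases. RefSeq promoters matched 37 members; Fads1, Scd1, Scd2, Dgat1 and Dgat2 had no entry. These 37 genes had 46 promoters in the table, since some have several. CCAAT was in 45.7% of the 46 and in 37.4% of all 32851 promoters, and GGGCGG in 67.4% and 35.7%. Counted by gene, with any promoter sufficing, 19 and 27 of the 37 held them. By arm, CCAAT was in 9 of 14 synthesis and 3 of 11 oxidation genes, and GGGCGG in 9 of 14 and 9 of 11. TCACNCCAC, a sterol response element core, was found for Acsl1 alone (1.24% of all promoters), the E-box CACGTG for Elovl4, Elovl5 and Plin2 (7.15%), and GTCTAGAC, a Smad palindrome, for none of them (0.213%). These are matches of letters in a short window and were not tested for binding.

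Per length, as CPM per kilobase of exon (RPKM, over the union of annotated exons), the highest members in control cells with DOX alone were synthesis genes. Acly, the ATP citrate lyase that exports acetyl-CoA to the cytosol, was highest at 660.4 ± 12 RPKM (SD, n = 3), and the desaturase Scd2 followed at 645 ± 20.2 RPKM, with libraries that overlapped those of Acly. The desaturases Fads1, Scd1 and Fads2 came next at 175 ± 3.55, 105 ± 2.7 and 104 ± 4.66 RPKM, of which Scd1 and Fads2 lay within each other's spread. Fasn reached 73 ± 13.8 RPKM and the elongase Elovl5 68.3 ± 1.83 RPKM, also within the spread of Fasn. The highest oxidation genes were Acadvl, Acadl and Hadh at 36.6 ± 0.843, 33.8 ± 1.95 and 30.5 ± 0.878 RPKM, and carnitine palmitoyltransferase Cpt1a stood at 7.4 ± 0.0583 RPKM. At the foot were Elovl7 at 0.902 ± 0.0244, Acacb, the mitochondrial acetyl-CoA carboxylase, at 0.297 ± 0.0194 and Ppara at 0.249 ± 0.0427 RPKM, with as few as 10 counts of Ppara in a library.

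Activin B moved members of both arms in either direction. At an adjusted p below 0.05 in edgeR, 8 members rose and 6 fell in control cells, beside 10.7% and 9.66% of all genes tested. In ALK7 cells 7 rose and 12 fell (13% and 12.3% of all genes), in ALK7-DN cells 9 rose and 4 fell (8.48% and 7.62%), in sh2 cells 6 rose and 5 fell (10.7% and 8.91%) and in sh1/2 cells 9 rose and 11 fell (17.5% and 19.1%). Acly, Me1, Dgat2, Lpin1 and Plin2 rose in all 5 lines, as did 4.33% of all genes, and Elovl6 fell in all 5, as did 3.54% of all genes. Another 23 members passed the test in 1 to 4 of the lines, and 13 members passed it in none. With the replicate number as a block, no call in ALK7, ALK7-DN and sh1/2 cells was lost. The labels tie these numbers to no shared culture. Acads and Fasn were then called in ALK7 cells as well, and Acadl in ALK7-DN cells. In sh1/2 cells Acacb, Acads, Acsl1, Cpt1c, Fads2 and Hadha were added. Every call among the 11 elongation and desaturation genes was downward, whereas 3 of the 6 genes of the first synthesis steps rose in control cells. Without the 3 libraries that stood apart, the 14 calls in control cells became 13, beside 11.2% of all genes higher and 9.23% lower. Those of Fads3 (-0.16) and Acadvl (-0.11) were lost and Elovl5 was called (-0.19). In sh1/2 cells, where DOX was then a single library, calls fell in number among the members and among all genes. The changes there included 0.70 for Acly, 0.76 for Me1, -0.21 for Elovl5, -0.53 for Elovl6, -0.28 for Scd1 and 0.45 for Hadh. Changes that came nearer to 0 included 0.30 for Fasn, 0.07 for Srebf1 and 0.04 for Acsl4.

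**Figure D1:**
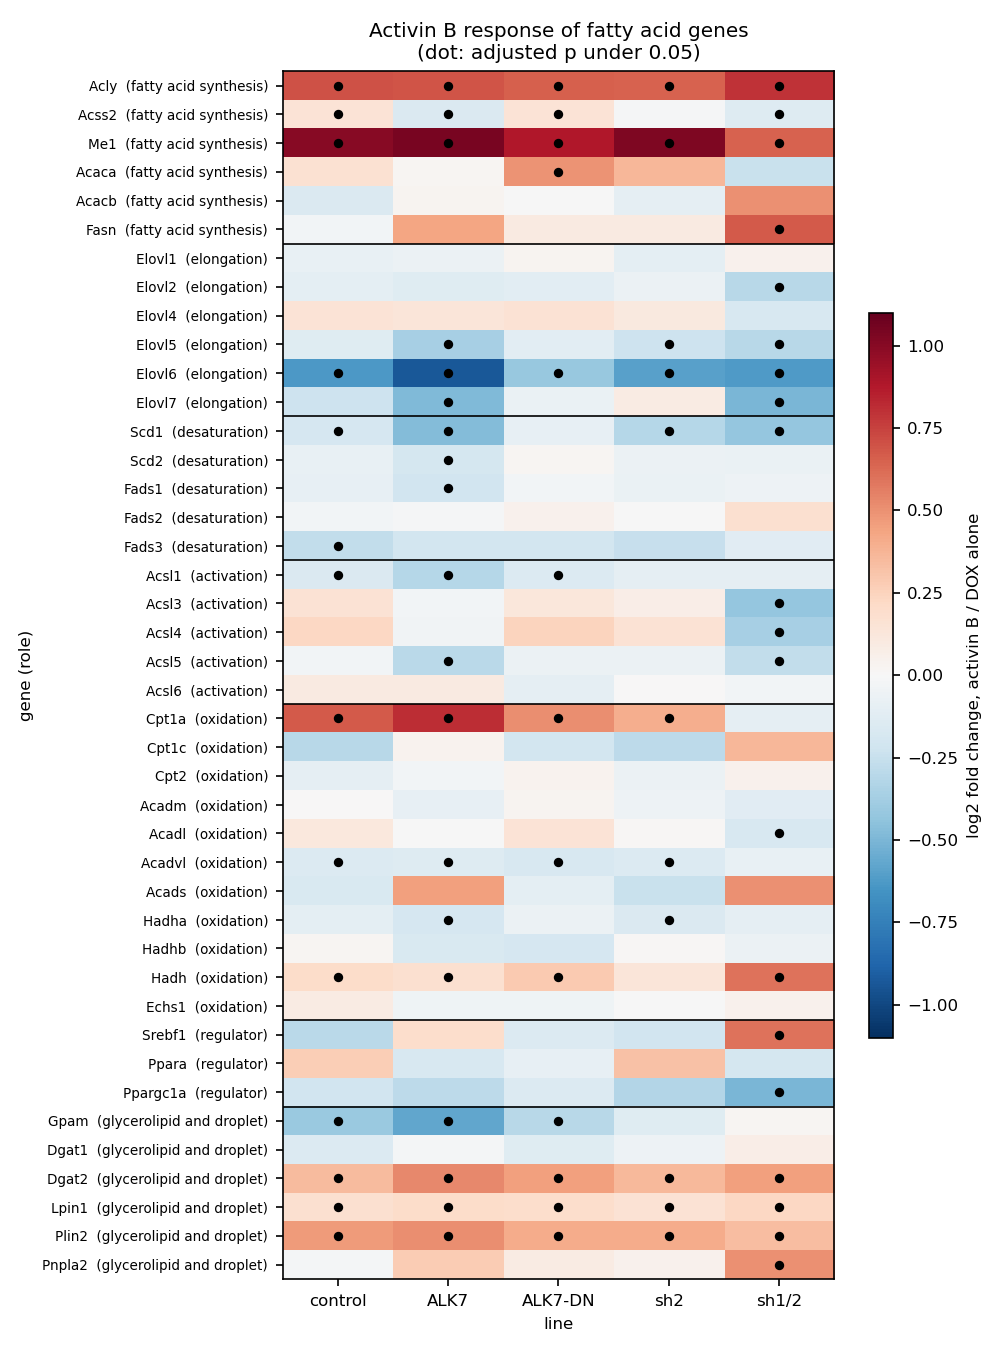
Log2 change with activin B of each of the 42 members (rows, grouped by role) in each of the 5 lines (columns), with a dot on changes that passed an adjusted p below 0.05 in edgeR. Acly and Me1 are higher in all 5 columns and Elovl6 is lower in all 5, and Cpt1a is higher in 4 columns and near 0 in sh1/2 cells.

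Acly had the highest CPM of the set in 27 of the 30 libraries, and Scd2 in the other 3. With DOX alone, Acly stood at 3468, 3434 and 3556 CPM in control, 3742, 3580.3 and 3696 in ALK7, 3471, 3538 and 3644 in ALK7-DN, 2925, 3037 and 3174 in sh2 and 1831, 2099 and 1964 in sh1/2 cells. With activin B, Acly stood at 6041, 5045 and 5941 CPM in control, 5868, 5855 and 6058 in ALK7, 5567, 5621 and 5628 in ALK7-DN, 4798, 4648 and 4889 in sh2 and 3439.8, 3354 and 3461 in sh1/2 cells. The groups did not overlap within any line, and both sh1/2 groups were the lowest of their treatment. For Acly, the log2 change was 0.70 ± 0.05 (SE) in control, 0.69 ± 0.05 in ALK7, 0.66 ± 0.05 in ALK7-DN, 0.65 ± 0.05 in sh2 and 0.80 ± 0.05 in sh1/2 cells (largest adjusted p = 1.55e-09). Me1, the cytosolic malic enzyme that supplies NADPH, had a higher log2 change than Acly in 4 lines and a lower one in sh1/2 cells, differences that were not tested. With DOX alone, Me1 stood at 87.7, 91.7 and 92.4 CPM in control, 90.6, 88.8 and 83.7 in ALK7, 83.9, 88.9 and 81.5 in ALK7-DN, 75.3, 83.2 and 95.3 in sh2 and 89.2, 89.5 and 110.4 in sh1/2 cells. With activin B, Me1 stood at 173, 199 and 171 CPM in control, 172, 179 and 192 in ALK7, 155, 140.2 and 172 in ALK7-DN, 164, 176 and 178 in sh2 and 145, 152 and 157 in sh1/2 cells. The groups were apart in every line, and the DOX levels of the other 4 lines overlapped those of control cells. For Me1, the log2 change was 1.00 ± 0.09 (SE) in control, 1.04 ± 0.09 in ALK7, 0.88 ± 0.09 in ALK7-DN, 1.03 ± 0.09 in sh2 and 0.65 ± 0.09 in sh1/2 cells (largest adjusted p = 3.8e-06).

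Acss2, which makes acetyl-CoA from acetate, moved in both directions. With DOX alone, Acss2 stood at 101, 109.7 and 105 CPM in control, 101, 97.4 and 101 in ALK7, 111, 110.0 and 118 in ALK7-DN, 97.4, 98.1 and 101 in sh2 and 79.1, 80.3 and 82.1 in sh1/2 cells. With activin B, Acss2 stood at 115, 117 and 120.2 CPM in control, 83.3, 90.4 and 94.9 in ALK7, 123, 121 and 133 in ALK7-DN, 96.7, 101 and 96.9 in sh2 and 71.7, 74.2 and 73.4 in sh1/2 cells. It rose in control and ALK7-DN cells, fell in ALK7 and sh1/2 cells, and overlapped in sh2 cells. For Acss2, the log2 change was 0.15 ± 0.05 (SE) in control, -0.15 ± 0.05 in ALK7, 0.15 ± 0.05 in ALK7-DN, -0.01 ± 0.05 in sh2 and -0.14 ± 0.05 in sh1/2 cells (largest adjusted p among the 4 calls = 0.0244). Without the 3 libraries the sh1/2 value was -0.13 and did not pass (adjusted p = 0.253). The Acss2 calls were lost under 5 of 14 alternatives run in control, 4 of 13 in ALK7, 5 of 14 in ALK7-DN and 6 of 14 in sh1/2 cells. Of the exonic bases of Acss2 9.12% overlap genes on the other strand. Acaca, the cytosolic acetyl-CoA carboxylase that makes malonyl-CoA, varied more between libraries. With DOX alone, Acaca stood at 158, 166 and 169 CPM in control, 163, 151 and 161 in ALK7, 157, 98.2 and 132 in ALK7-DN, 88.9, 155 and 156 in sh2 and 119, 127 and 138 in sh1/2 cells. With activin B, Acaca stood at 191, 180.3 and 184 CPM in control, 164, 149.8 and 168 in ALK7, 181, 176 and 187 in ALK7-DN, 181, 157 and 179 in sh2 and 89.8, 135 and 99 in sh1/2 cells. The DOX values include single low libraries of ALK7-DN (98.2 CPM) and sh2 (88.9 CPM). For Acaca, the log2 change was 0.17 ± 0.16 (SE) in control, 0.02 ± 0.16 in ALK7, 0.49 ± 0.16 in ALK7-DN, 0.37 ± 0.16 in sh2 and -0.24 ± 0.16 in sh1/2 cells, of which the ALK7-DN value passed the test (adjusted p = 0.0392) and no longer did on leaving out any library of that line but DOX 1.

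Fasn, the fatty acid synthase, with an exonic GC content of 58.3%, also spread widely within groups. With DOX alone, Fasn stood at 945, 643 and 809.9 CPM in control, 644, 595 and 591 in ALK7, 939, 717 and 684 in ALK7-DN, 699, 670.2 and 676 in sh2 and 366, 547 and 350.5 in sh1/2 cells. With activin B, Fasn stood at 979.6, 534 and 827 CPM in control, 945, 809 and 711 in ALK7, 1043, 769.7 and 686 in ALK7-DN, 794, 664 and 727 in sh2 and 637, 695 and 685 in sh1/2 cells. The groups overlapped in control, ALK7-DN and sh2 cells and did not in ALK7 and sh1/2 cells. For Fasn, the log2 change was -0.03 ± 0.19 (SE) in control, 0.43 ± 0.19 in ALK7, 0.09 ± 0.19 in ALK7-DN, 0.10 ± 0.19 in sh2 and 0.67 ± 0.19 in sh1/2 cells. It passed the test in sh1/2 cells (adjusted p = 0.00972), and without the 3 libraries that stood apart the change there was 0.30 (adjusted p = 0.514). Acacb stood between 1.54 and 4.08 CPM in all 30 libraries and passed no test of a response.

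**Figure D2:**
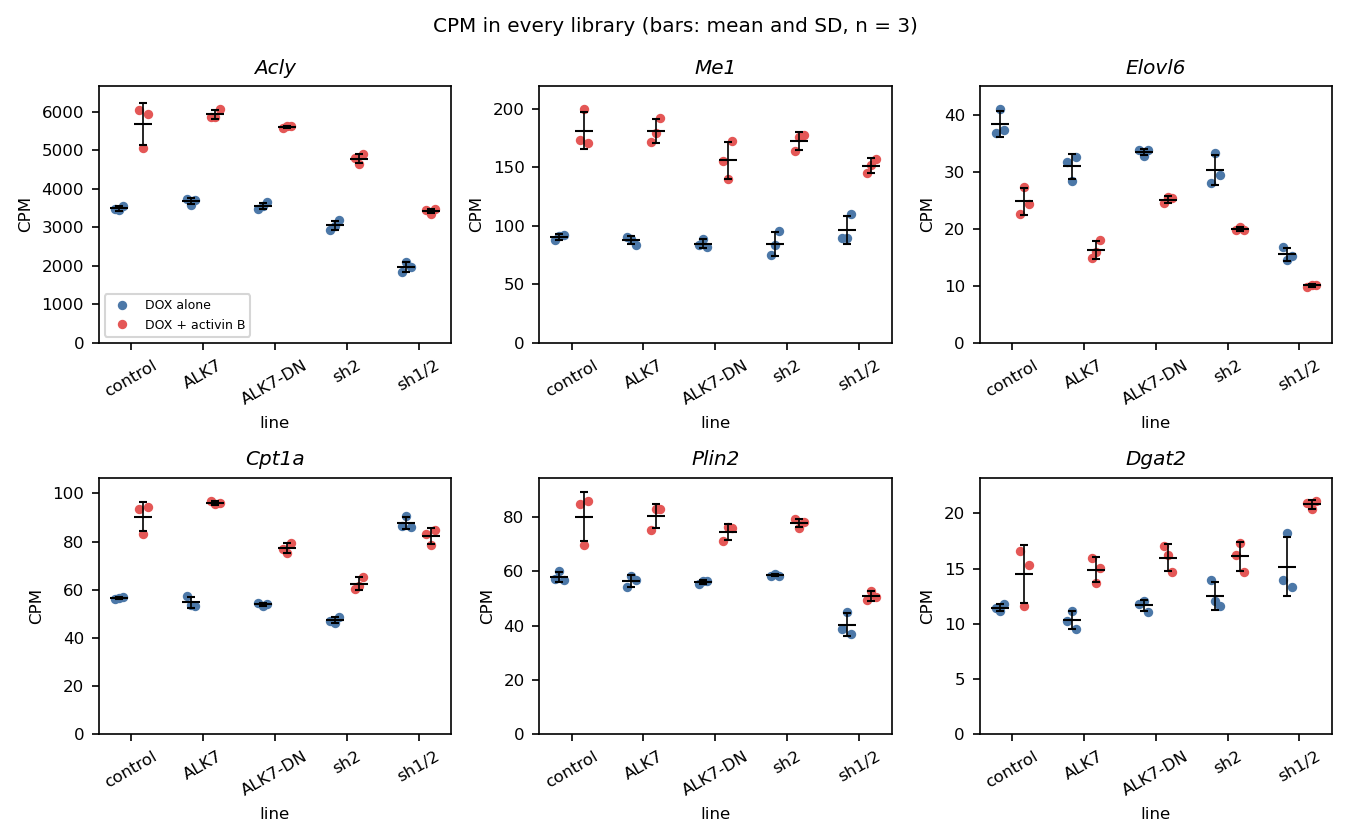
CPM of Acly, Me1, Elovl6, Cpt1a, Plin2 and Dgat2 in each of the 30 libraries (points) by line and treatment, with the group mean and SD (n = 3) as bars, each panel on its own linear axis from 0. Activin B points lie above DOX points for Acly and Me1 and below them for Elovl6 in every line, while Cpt1a in sh1/2 cells lies at 86.3 to 90.7 CPM under DOX alone and at 78.5 to 84.9 CPM with activin B.

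Among the 6 elongases, Elovl6, which lengthens saturated and monounsaturated chains of palmitate length, fell in every line. With DOX alone, Elovl6 stood at 36.9, 41 and 37.4 CPM in control, 31.8, 28.4 and 32.7 in ALK7, 33.9, 32.9 and 33.9 in ALK7-DN, 28.2, 33.3 and 29.5 in sh2 and 16.8, 14.6 and 15.3 in sh1/2 cells. With activin B, Elovl6 stood at 22.7, 27.3 and 24.5 CPM in control, 14.8, 16 and 18 in ALK7, 24.5, 25.6 and 25.4 in ALK7-DN, 19.8, 20.3 and 19.9 in sh2 and 9.85, 10.2 and 10.2 in sh1/2 cells. The groups did not overlap within any line, and sh1/2 cells with DOX alone were already below the activin B groups of control, ALK7-DN and sh2 cells. For Elovl6, the log2 change was -0.63 ± 0.08 (SE) in control, -0.93 ± 0.08 in ALK7, -0.41 ± 0.08 in ALK7-DN, -0.60 ± 0.08 in sh2 and -0.62 ± 0.08 in sh1/2 cells (largest adjusted p = 0.000292). Elovl5, the elongase of polyunsaturated chains, fell in ALK7, sh2 and sh1/2 cells (log2 change -0.36, -0.22 and -0.31), and its values in control and ALK7-DN cells were -0.13 and -0.12, which did not pass. Elovl7 was lower in ALK7 (-0.49) and sh1/2 cells (-0.50) and Elovl2 in sh1/2 cells (-0.31), but without the 3 libraries the sh1/2 calls of Elovl2 (-0.04) and Elovl7 (-0.48) were lost, and Elovl5 stood at -0.21 there. Elovl1, Elovl4 and the other lines of Elovl2 gave no call.

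The 5 desaturases gave 2 calls in control cells, 3 in ALK7 cells, 1 each in the hairpin lines, and in ALK7-DN cells the values lay between -0.20 and 0.05 without a call. Scd1, a stearoyl-CoA desaturase that places the first double bond in a saturated chain, fell in 4 lines. With DOX alone, Scd1 stood at 523, 497 and 515 CPM in control, 455, 409 and 434 in ALK7, 505, 461 and 479 in ALK7-DN, 417, 423 and 426 in sh2 and 254, 217 and 249 in sh1/2 cells. With activin B, Scd1 stood at 444, 464 and 440.1 CPM in control, 306, 296 and 329.8 in ALK7, 477, 424 and 453 in ALK7-DN, 353, 342 and 325 in sh2 and 189, 185 and 161 in sh1/2 cells. The groups overlapped in ALK7-DN cells only, and within each treatment sh1/2 cells were lowest. For Scd1, the log2 change was -0.19 ± 0.06 (SE) in control, -0.48 ± 0.06 in ALK7, -0.09 ± 0.06 in ALK7-DN, -0.31 ± 0.06 in sh2 and -0.42 ± 0.06 in sh1/2 cells (largest adjusted p among the 4 calls = 0.0423). The call in control cells was lost under 8 of the 14 alternatives run, and the sh1/2 value without the 3 libraries was -0.28, still called.

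Scd2, the stearoyl-CoA desaturase abundant in brain, fell with activin B in ALK7 cells. With DOX alone, Scd2 stood at 3628, 3409 and 3543 CPM in control, 3168, 3015 and 2990.5 in ALK7, 3583, 3323 and 3309 in ALK7-DN, 3031, 2986 and 3032 in sh2 and 1632, 1510.2 and 1585 in sh1/2 cells. With activin B, Scd2 stood at 3436, 3251 and 3296 CPM in control, 2736, 2600.2 and 2677 in ALK7, 3671, 3352 and 3366 in ALK7-DN, 2951, 2880.2 and 2814 in sh2 and 1540.0, 1552 and 1407 in sh1/2 cells. The treatments overlapped in control, ALK7-DN and sh1/2 cells. For Scd2, the log2 change was -0.08 ± 0.05 (SE) in control, -0.20 ± 0.05 in ALK7, 0.02 ± 0.05 in ALK7-DN, -0.07 ± 0.05 in sh2 and -0.07 ± 0.05 in sh1/2 cells (adjusted p = 0.0032 in ALK7 and at least 0.247 elsewhere). Fads1, which with Fads2 makes polyunsaturated chains, fell in ALK7 cells (log2 change -0.21), and Fads3, of less certain function, in control cells (-0.27), where its libraries overlapped. Fads2 gave values from -0.03 to 0.18 and no call.

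The acyl-CoA synthetases activate long-chain fatty acids for either arm, and 1, 2, 1, 0 and 3 of the 5 fell in control, ALK7, ALK7-DN, sh2 and sh1/2 cells, all calls being downward. Acsl5 was the highest of them per length. With DOX alone, Acsl5 stood at 244, 269 and 259 CPM in control, 281, 283 and 297 in ALK7, 257, 272 and 279.8 in ALK7-DN, 265, 256 and 261 in sh2 and 277, 245 and 281 in sh1/2 cells. With activin B, Acsl5 stood at 236, 269 and 253 CPM in control, 230.4, 227 and 243 in ALK7, 248, 251 and 275 in ALK7-DN, 251, 248 and 249 in sh2 and 226, 218 and 224 in sh1/2 cells. The groups were apart in ALK7, sh2 and sh1/2 cells. For Acsl5, the log2 change was -0.03 ± 0.06 (SE) in control, -0.30 ± 0.06 in ALK7, -0.06 ± 0.06 in ALK7-DN, -0.07 ± 0.06 in sh2 and -0.27 ± 0.06 in sh1/2 cells (adjusted p = 0.000189 in ALK7 and 0.000814 in sh1/2 cells), and the sh1/2 value without the 3 libraries was -0.14. Acsl1 fell in control, ALK7 and ALK7-DN cells (log2 change -0.16, -0.31 and -0.15), and Acsl6, the neuronal form, gave no call. The Acsl1 calls were lost under 7 of 14 alternatives in control, 9 of 14 in ALK7-DN and 0 of 13 in ALK7 cells.

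Acsl3, a droplet-associated synthetase, and Acsl4, which prefers arachidonate, moved with the sh1/2 libraries. With DOX alone, Acsl3 stood at 41.4, 47.6 and 45.5 CPM in control, 38.3, 41.6 and 43.9 in ALK7, 39.4, 45.3 and 41.1 in ALK7-DN, 42.5, 41.3 and 45.7 in sh2 and 58.7, 46.7 and 63.6 in sh1/2 cells. With activin B, Acsl3 stood at 43.5, 59.1 and 47.9 CPM in control, 37, 41 and 43 in ALK7, 44.2, 47.1 and 45.6 in ALK7-DN, 42, 47.6 and 46.7 in sh2 and 43.4, 41.7 and 40.8 in sh1/2 cells. In sh1/2 cells DOX libraries 1 and 3 were high and library 2 near the other lines. For Acsl3, the log2 change was 0.16 ± 0.10 (SE) in control, -0.03 ± 0.10 in ALK7, 0.12 ± 0.10 in ALK7-DN, 0.07 ± 0.10 in sh2 and -0.42 ± 0.10 in sh1/2 cells, past the test in sh1/2 cells (adjusted p = 0.00293) and -0.15 there without the 3 libraries. With DOX alone, Acsl4 stood at 175, 174 and 187 CPM in control, 174, 151 and 169 in ALK7, 163, 155 and 158 in ALK7-DN, 145, 156 and 181 in sh2 and 183, 124 and 188 in sh1/2 cells. With activin B, Acsl4 stood at 188, 239 and 199 CPM in control, 162, 151 and 169 in ALK7, 189, 176 and 197 in ALK7-DN, 174, 180.1 and 183 in sh2 and 131, 124 and 128 in sh1/2 cells. Library 2 of sh1/2 DOX, at 124 CPM, sat at the level of the activin B libraries, and the other 2 sat well above them. For Acsl4, the log2 change was 0.22 ± 0.11 (SE) in control, -0.04 ± 0.11 in ALK7, 0.24 ± 0.11 in ALK7-DN, 0.16 ± 0.11 in sh2 and -0.37 ± 0.11 in sh1/2 cells, past the test in sh1/2 cells (adjusted p = 0.0126), where without the 3 libraries it was 0.04, the opposite sign. With a GC content of 38.8%, Acsl4 was the member poorest in GC.

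**Figure D3:**
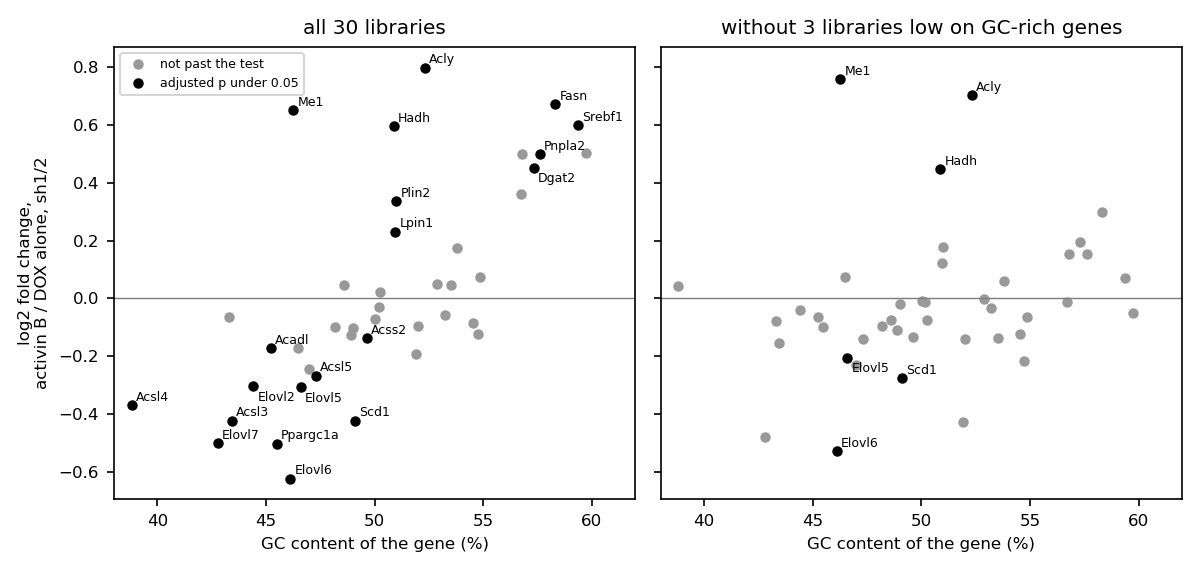
Log2 change with activin B in sh1/2 cells for each of the 42 members against its exonic GC content (%), with all libraries and without the 3 that stood apart by base composition. With all libraries GC-rich members such as Fasn lie high and GC-poor members such as Acsl4 lie low, and without the 3 libraries these values move toward 0 while Acly and Me1 stay high and Elovl6 low.

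In the oxidation arm 2 of 11 rose and 1 fell in control cells. Cpt1a, the carnitine palmitoyltransferase of the outer membrane that controls entry into mitochondria, rose in 4 lines. With DOX alone, Cpt1a stood at 56.2, 56.5 and 57.1 CPM in control, 57.5, 53.7 and 53.2 in ALK7, 54.5, 53.4 and 54.3 in ALK7-DN, 47, 46.2 and 48.7 in sh2 and 86.5, 90.7 and 86.3 in sh1/2 cells. With activin B, Cpt1a stood at 93.5, 83.3 and 94.2 CPM in control, 96.9, 95.4 and 96.1 in ALK7, 76.9, 75.4 and 79.5 in ALK7-DN, 60.4, 61.7 and 65.5 in sh2 and 83.3, 78.5 and 84.9 in sh1/2 cells. The groups did not overlap in any line, activin B being above DOX in 4 lines and below it in sh1/2 cells, whose DOX libraries overlapped the activin B libraries of control cells. For Cpt1a, the log2 change was 0.68 ± 0.05 (SE) in control, 0.81 ± 0.05 in ALK7, 0.52 ± 0.05 in ALK7-DN, 0.40 ± 0.05 in sh2 and -0.09 ± 0.05 in sh1/2 cells (largest adjusted p among the 4 calls = 4.82e-07, and 0.11 in sh1/2 cells). Over the 14 alternatives run, the ALK7-DN value of Cpt1a ranged from 0.49 to 1.01. Cpt1c, the neuronal form of the endoplasmic reticulum, overlapped between treatments in 4 lines. With DOX alone, Cpt1c stood at 50.6, 41.4 and 50.0 CPM in control, 43.3, 42.4 and 38.5 in ALK7, 52.4, 44.4 and 43.5 in ALK7-DN, 56.4, 54.5 and 48.8 in sh2 and 37.2, 53.4 and 32.3 in sh1/2 cells. With activin B, Cpt1c stood at 43.9, 29.5 and 41.6 CPM in control, 46, 42.2 and 39.6 in ALK7, 45.7, 40.3 and 35.7 in ALK7-DN, 44.1, 41.8 and 45 in sh2 and 50.5, 54.4 and 53.5 in sh1/2 cells. The lowest of the 30 values were in control activin B library 2 and sh1/2 DOX library 3, both among those that stood apart. For Cpt1c, the log2 change was -0.30 ± 0.14 (SE) in control, 0.04 ± 0.14 in ALK7, -0.20 ± 0.14 in ALK7-DN, -0.29 ± 0.14 in sh2 and 0.36 ± 0.14 in sh1/2 cells, none past the test (smallest adjusted p = 0.0516).

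Hadh, the short-chain hydroxyacyl-CoA dehydrogenase, known in beta cells as a brake on insulin secretion, rose in 4 lines. With DOX alone, Hadh stood at 154, 147 and 155 CPM in control, 131, 133 and 134 in ALK7, 135, 135 and 133 in ALK7-DN, 119, 110.2 and 112 in sh2 and 88.6, 105 and 90.6 in sh1/2 cells. With activin B, Hadh stood at 177, 163 and 182 CPM in control, 155, 151 and 144 in ALK7, 169, 164 and 157 in ALK7-DN, 125, 122 and 126 in sh2 and 137, 143 and 150.5 in sh1/2 cells. The groups did not overlap in any line, and the sh1/2 line started lowest and rose most. For Hadh, the log2 change was 0.20 ± 0.06 (SE) in control, 0.18 ± 0.06 in ALK7, 0.28 ± 0.06 in ALK7-DN, 0.13 ± 0.06 in sh2 and 0.60 ± 0.06 in sh1/2 cells (largest adjusted p among the 4 calls = 0.0197, and 0.109 in sh2 cells). In ALK7-DN cells, where the activin B libraries are of batch 2, a batch term taken from the hairpin lines, assumed to respond alike, gave -0.18.

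Acadvl, the very-long-chain acyl-CoA dehydrogenase, shares 42.9% of its exonic bases with Dvl2 on the other strand, and as the strand setting of the counting is not given in the sources used here, its counts are uncertain. With DOX alone, Acadvl stood at 95.9, 99.1 and 100.2 CPM in control, 108, 106 and 111 in ALK7, 101, 108 and 111 in ALK7-DN, 95.3, 101 and 96.8 in sh2 and 96.2, 103 and 100.4 in sh1/2 cells. With activin B, Acadvl stood at 89.5, 83.8 and 92.8 CPM in control, 97.7, 98.1 and 98.8 in ALK7, 88.5, 98.1 and 96.4 in ALK7-DN, 86.4, 87 and 90.2 in sh2 and 91.9, 94.7 and 95.8 in sh1/2 cells. The activin B libraries lay below the DOX libraries in each line. For Acadvl, the log2 change was -0.15 ± 0.05 (SE) in control, -0.15 ± 0.05 in ALK7, -0.18 ± 0.05 in ALK7-DN, -0.15 ± 0.05 in sh2 and -0.08 ± 0.05 in sh1/2 cells (largest adjusted p among the 4 calls = 0.0203). The Acadvl calls were lost under 8 of 14 alternatives in control, 4 of 13 in ALK7, 4 of 14 in ALK7-DN and 5 of 13 in sh2 cells. Without the 3 libraries the control value of Acadvl was -0.11 and did not pass. Acadl, the long-chain enzyme, passed the test in sh1/2 cells alone. With DOX alone, Acadl stood at 64.4, 72 and 66.7 CPM in control, 68.8, 73.5 and 74.8 in ALK7, 62.8, 68.8 and 71.6 in ALK7-DN, 62.8, 63.9 and 64.1 in sh2 and 71, 66.8 and 78.3 in sh1/2 cells. With activin B, Acadl stood at 69.8, 79.3 and 71.7 CPM in control, 67.3, 73.6 and 76 in ALK7, 71.5, 76.3 and 78.1 in ALK7-DN, 59, 65.7 and 67.8 in sh2 and 63.6, 63.5 and 64.3 in sh1/2 cells. The treatments were apart in sh1/2 cells and overlapped in the other 4 lines. For Acadl, the log2 change was 0.12 ± 0.07 (SE) in control, -0.00 ± 0.07 in ALK7, 0.15 ± 0.07 in ALK7-DN, 0.01 ± 0.07 in sh2 and -0.17 ± 0.07 in sh1/2 cells (adjusted p = 0.046 in sh1/2 cells), and without the 3 libraries the sh1/2 value was -0.07, which did not pass.

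Hadha and Hadhb encode the alpha and beta subunits of the mitochondrial trifunctional protein from the shared promoter region shown above. With DOX alone, Hadha stood at 195, 210.0 and 207 CPM in control, 209, 214 and 217 in ALK7, 204, 218 and 219 in ALK7-DN, 222, 228 and 222 in sh2 and 209, 217 and 226 in sh1/2 cells. With activin B, Hadha stood at 186, 189.7 and 194 CPM in control, 184, 186 and 193 in ALK7, 202, 207 and 202 in ALK7-DN, 201, 199 and 204 in sh2 and 206, 207 and 196 in sh1/2 cells. The treatments overlapped in ALK7-DN cells only. For Hadha, the log2 change was -0.11 ± 0.04 (SE) in control, -0.18 ± 0.04 in ALK7, -0.07 ± 0.04 in ALK7-DN, -0.16 ± 0.04 in sh2 and -0.10 ± 0.04 in sh1/2 cells (adjusted p = 0.000927 in ALK7 and 0.00566 in sh2 cells, the 2 calls). With DOX alone, Hadhb stood at 68.3, 73.6 and 30.3 CPM in control, 66.1, 71.9 and 72.4 in ALK7, 68.9, 59.1 and 72 in ALK7-DN, 84, 77.1 and 76.9 in sh2 and 63.9, 72.4 and 78.4 in sh1/2 cells. With activin B, Hadhb stood at 36.1, 75.8 and 63.2 CPM in control, 63.3, 66.3 and 57.2 in ALK7, 62.9, 56.2 and 56.7 in ALK7-DN, 79, 81.1 and 80.4 in sh2 and 75.7, 71 and 58.4 in sh1/2 cells. Control libraries DOX 3 (30.3 CPM) and activin B 1 (36.1 CPM) were low against 63.2 to 75.8 CPM in the other 4 control libraries, which Hadha did not show. For Hadhb, the log2 change was 0.02 ± 0.22 (SE) in control, -0.17 ± 0.22 in ALK7, -0.19 ± 0.22 in ALK7-DN, 0.02 ± 0.22 in sh2 and -0.06 ± 0.22 in sh1/2 cells (smallest adjusted p = 0.635). Cpt2, Acadm, Acads and Echs1, which complete the spiral for shorter chains and at the inner membrane, gave no call in any line, with values between -0.25 and 0.50 (log2), both from Acads.

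The medians of both arms were close to that of all genes. The median log2 change was -0.08 over the 17 synthesis genes and 0.00 over the 11 oxidation genes in control cells, -0.13 and -0.03 in ALK7, 0.02 and -0.05 in ALK7-DN, -0.07 and -0.06 in sh2 and -0.12 and -0.06 in sh1/2 cells, beside all-gene medians between -0.01 and 0.00. Calls up and down were 3 and 3 of 17 synthesis genes against 2 and 1 of 11 oxidation genes in control cells. In ALK7 cells they were 2 and 7 against 2 and 2, in ALK7-DN cells 4 and 1 against 2 and 1, in sh2 cells 2 and 3 against 1 and 2, and in sh1/2 cells 3 and 6 against 1 and 1. The median of the synthesis genes minus that of the oxidation genes was -0.0842 in control cells. Its sign turned on leaving out a single control library, to 0.0403 without activin B library 2 and 0.0116 without DOX library 3.

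Of the regulators, Srebf1 encodes the transcription factor that drives lipogenic genes and has a GC content of 59.4%. With DOX alone, Srebf1 stood at 269, 179.6 and 221 CPM in control, 187, 189.6 and 166 in ALK7, 265, 215 and 193 in ALK7-DN, 231, 202 and 183 in sh2 and 102, 181 and 90.7 in sh1/2 cells. With activin B, Srebf1 stood at 231, 122 and 191 CPM in control, 238, 217 and 166 in ALK7, 246, 203 and 158 in ALK7-DN, 200.4, 166 and 168 in sh2 and 175, 205 and 187 in sh1/2 cells. The treatments overlapped in every line. For Srebf1, the log2 change was -0.29 ± 0.23 (SE) in control, 0.20 ± 0.23 in ALK7, -0.15 ± 0.23 in ALK7-DN, -0.21 ± 0.23 in sh2 and 0.60 ± 0.23 in sh1/2 cells; the sh1/2 value passed (adjusted p = 0.0422) and was 0.07 without the 3 libraries. Ppargc1a, a coactivator of mitochondrial genes, was low throughout. With DOX alone, Ppargc1a stood at 16.4, 15.4 and 18.7 CPM in control, 12.8, 11.2 and 11.7 in ALK7, 14.1, 11.9 and 15.6 in ALK7-DN, 9.56, 11.4 and 13.5 in sh2 and 5.82, 4.23 and 6.9 in sh1/2 cells. With activin B, Ppargc1a stood at 13.4, 14.9 and 15.4 CPM in control, 8.89, 9.79 and 10.5 in ALK7, 13.4, 10.7 and 13.5 in ALK7-DN, 8.92, 9.04 and 9.48 in sh2 and 3.38, 4.05 and 4.41 in sh1/2 cells. Activin B means were lower in each line, and libraries overlapped in ALK7-DN and sh1/2 cells. For Ppargc1a, the log2 change was -0.21 ± 0.14 (SE) in control, -0.29 ± 0.14 in ALK7, -0.15 ± 0.14 in ALK7-DN, -0.33 ± 0.14 in sh2 and -0.50 ± 0.15 in sh1/2 cells; the sh1/2 value passed (adjusted p = 0.0152) and was -0.10 without the 3 libraries. Ppara, the nuclear receptor that induces oxidation genes, was barely present. With DOX alone, Ppara stood at 0.77, 1.08 and 1.01 CPM in control, 0.947, 1.26 and 0.943 in ALK7, 1.58, 1.44 and 1.12 in ALK7-DN, 0.378, 0.585 and 0.719 in sh2 and 0.542, 0.903 and 0.855 in sh1/2 cells. With activin B, Ppara stood at 1.1, 0.943 and 1.42 CPM in control, 0.796, 0.738 and 1.27 in ALK7, 1.47, 0.981 and 1.43 in ALK7-DN, 0.693, 0.777 and 0.622 in sh2 and 0.585, 0.866 and 0.538 in sh1/2 cells. All treatments overlapped, and the smallest adjusted p of a response was 0.5.

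Triglyceride and droplet genes gave 3 rises and 1 fall among 6 in control cells. Plin2, the coat protein of lipid droplets, rose in all lines. With DOX alone, Plin2 stood at 57.2, 60.1 and 56.6 CPM in control, 54.1, 58.1 and 56.9 in ALK7, 55.2, 56.4 and 56.5 in ALK7-DN, 58.4, 59.2 and 58.4 in sh2 and 38.7, 45.1 and 37.1 in sh1/2 cells. With activin B, Plin2 stood at 84.8, 69.6 and 85.9 CPM in control, 75.1, 82.9 and 83 in ALK7, 71.1, 76.4 and 75.8 in ALK7-DN, 79.1, 76 and 78.3 in sh2 and 49.4, 52.9 and 50.5 in sh1/2 cells. The groups did not overlap within any line, and sh1/2 cells were lowest in each treatment. For Plin2, the log2 change was 0.47 ± 0.07 (SE) in control, 0.51 ± 0.07 in ALK7, 0.41 ± 0.07 in ALK7-DN, 0.41 ± 0.07 in sh2 and 0.34 ± 0.07 in sh1/2 cells (largest adjusted p = 0.000752), and without the 3 libraries it was 0.56 in control and 0.18 in sh1/2 cells, the latter no longer past the test.

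Dgat2, which completes triglyceride from diacylglycerol, was a low-count gene that rose in all lines. With DOX alone, Dgat2 stood at 11.4, 11.2 and 11.8 CPM in control, 10.3, 11.2 and 9.51 in ALK7, 11.8, 12.1 and 11.1 in ALK7-DN, 13.9, 12.1 and 11.6 in sh2 and 14, 18.2 and 13.3 in sh1/2 cells. With activin B, Dgat2 stood at 16.6, 11.6 and 15.4 CPM in control, 16, 13.7 and 15.1 in ALK7, 17.1, 16.2 and 14.7 in ALK7-DN, 16.2, 17.3 and 14.7 in sh2 and 20.9, 20.4 and 21.1 in sh1/2 cells. Control activin B library 2 overlapped the control DOX libraries. For Dgat2, the log2 change was 0.35 ± 0.12 (SE) in control, 0.53 ± 0.12 in ALK7, 0.45 ± 0.12 in ALK7-DN, 0.36 ± 0.12 in sh2 and 0.45 ± 0.11 in sh1/2 cells (largest adjusted p = 0.0384); without the 3 libraries it was 0.48 in control and 0.19 in sh1/2 cells, where the call was lost. The control call was lost under 7 of the 14 alternatives run, among them leaving out each control library but activin B 2, with 0.24 (adjusted p = 0.191) without activin B library 1. The Dgat2 call was lost under 5 of 13 in sh2, 4 of 14 in sh1/2, 1 of 14 in ALK7-DN and 0 of 13 in ALK7 cells. Lpin1, a phosphatidate phosphatase and transcriptional coregulator, rose by less. With DOX alone, Lpin1 stood at 90.7, 83.5 and 84.9 CPM in control, 74.2, 72.2 and 75.6 in ALK7, 79, 76.6 and 75.7 in ALK7-DN, 72.2, 77 and 70.5 in sh2 and 41.3, 44.4 and 37.4 in sh1/2 cells. With activin B, Lpin1 stood at 105, 92.9 and 94.4 CPM in control, 84.2, 84.1 and 86.8 in ALK7, 90.9, 85.6 and 88.4 in ALK7-DN, 85, 84.3 and 76.3 in sh2 and 47.3, 49.3 and 48.1 in sh1/2 cells. Libraries overlapped in sh2 cells only. The Lpin1 calls were lost under 5 of 14 alternatives in control, 5 of 14 in ALK7-DN and 6 of 13 in sh2 cells. In sh1/2 cells this was 2 of 14, and in ALK7 cells 0 of 13. For Lpin1, the log2 change was 0.17 ± 0.06 (SE) in control, 0.20 ± 0.06 in ALK7, 0.20 ± 0.06 in ALK7-DN, 0.16 ± 0.06 in sh2 and 0.23 ± 0.06 in sh1/2 cells (largest adjusted p = 0.0495), and the sh1/2 call was lost without the 3 libraries (0.12).

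Gpam, the mitochondrial acyltransferase that opens glycerolipid synthesis, went the other way. With DOX alone, Gpam stood at 65.1, 64.1 and 60.4 CPM in control, 70.6, 66.8 and 65.1 in ALK7, 73, 69.6 and 68.4 in ALK7-DN, 53.4, 59.3 and 58.2 in sh2 and 42, 47.8 and 44 in sh1/2 cells. With activin B, Gpam stood at 50.6, 44.8 and 47.8 CPM in control, 47.7, 44.4 and 44.6 in ALK7, 56.4, 57.8 and 56.5 in ALK7-DN, 52.9, 53.3 and 49.6 in sh2 and 46.5, 43.9 and 45.6 in sh1/2 cells. The treatments were apart in the first 4 lines and overlapped in sh1/2 cells. For Gpam, the log2 change was -0.40 ± 0.06 (SE) in control, -0.57 ± 0.06 in ALK7, -0.31 ± 0.06 in ALK7-DN, -0.13 ± 0.06 in sh2 and 0.02 ± 0.06 in sh1/2 cells (largest adjusted p among the 3 calls = 0.000246). Pnpla2, the adipose triglyceride lipase, rose in sh1/2 cells (0.50), with a value of 0.15 without the 3 libraries, not past the test, and Dgat1 gave no call.

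The interaction of line and activin B asked whether a response differed from that of control cells. All 4 such tests use the control libraries. None of the 42 members passed in edgeR for ALK7 (0.0256% of all genes did), ALK7-DN (0%) or sh2 cells (0.0128%). At an unadjusted p below 0.05 in edgeR there were 6, 2 and 3 members, and DESeq2 called 1, 0 and 0. The matching shares of all genes are not given here, so these counts are not read as a result about the members. For sh1/2 cells 3 members responded higher and 6 lower than in control cells, beside 8.49% and 9.22% of all genes. Cpt1a differed most, at -0.77 ± 0.07 (adjusted p = 2.43e-07), and at -0.87 without the 3 libraries; its call held under all 20 alternatives run. Lower responses were also called for Acsl4 (-0.59), Acsl3 (-0.58), Acss2 (-0.29), Acadl (-0.29) and Acsl5 (-0.24), and higher ones for Cpt1c (0.66), Gpam (0.43) and Hadh (0.40). Without the 3 libraries these 8 calls were lost, with -0.07 for Acsl4, -0.18 for Acsl3, -0.29 for Acss2, -0.13 for Acadl, -0.06 for Acsl5, 0.13 for Cpt1c, 0.29 for Gpam and 0.20 for Hadh, and Plin2 was called at -0.38.

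The lines also differed before any activin B. Under DOX alone sh1/2 cells had 20 members lower and 4 higher than control cells, beside 18.6% and 19.4% of all genes. Of the 5 desaturases 4 were lower: Scd2 at -1.16 ± 0.05 (log2, SE; adjusted p = 8.64e-15), Scd1 at -1.09 ± 0.07 (5.18e-12), Fads1 at -0.66 ± 0.05 (9.71e-11) and Fads2 at -0.57 ± 0.09 (3.21e-05). Also lower were Elovl6 at -1.31 ± 0.08, Ppargc1a at -1.59 ± 0.15, Lpin1 at -1.07 ± 0.06 and Acly at -0.83 ± 0.05. Without the 3 libraries Scd2 stood at -1.23, Scd1 at -1.24, Elovl6 at -1.40 and Acly at -0.73, all still called. Cpt1a was higher by 0.63 ± 0.05 and 0.68 without them, and Dgat2 by 0.41 ± 0.12 and 0.67 without them. The calls of Fasn, Srebf1, Acsl3, Elovl2, Cpt2, Echs1 and Pnpla2 were lost without them, with Fasn at -0.92 before and -0.55 after, while Elovl5, Acsl4 and Fads3 were called (-0.22, -0.53 and 0.29).

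By arm, 9 of 17 synthesis genes were lower and 1 higher in sh1/2 cells under DOX alone, with a median of -0.39, against 3 lower and 1 higher of 11 oxidation genes, with a median of 0.02 and an all-gene median of -0.00. Each gene's log2 CPM was set against its mean over all 30 libraries, and the median of these deviations over the synthesis genes was taken in each library. Under DOX alone it was 0.146 ± 0.0299 (SD, n = 3) for the control line and -0.350 ± 0.0596 for sh1/2 cells. With activin B it was 0.176 ± 0.0345 and -0.218 ± 0.0560. The same median over the oxidation genes averaged between -0.0512 and 0.0616 in all 10 groups. Median GC contents were 49.6% for synthesis genes (range 42.8 to 58.3%) and 50.9% for oxidation genes (43.3 to 59.7%). The part of base composition in the difference between the arms was not tested. Summed beta cell markers differed between the same groups, at 14475 CPM in sh1/2 and 21646 CPM in control cells under DOX alone, and their part in these differences was not tested.

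**Figure D4:**
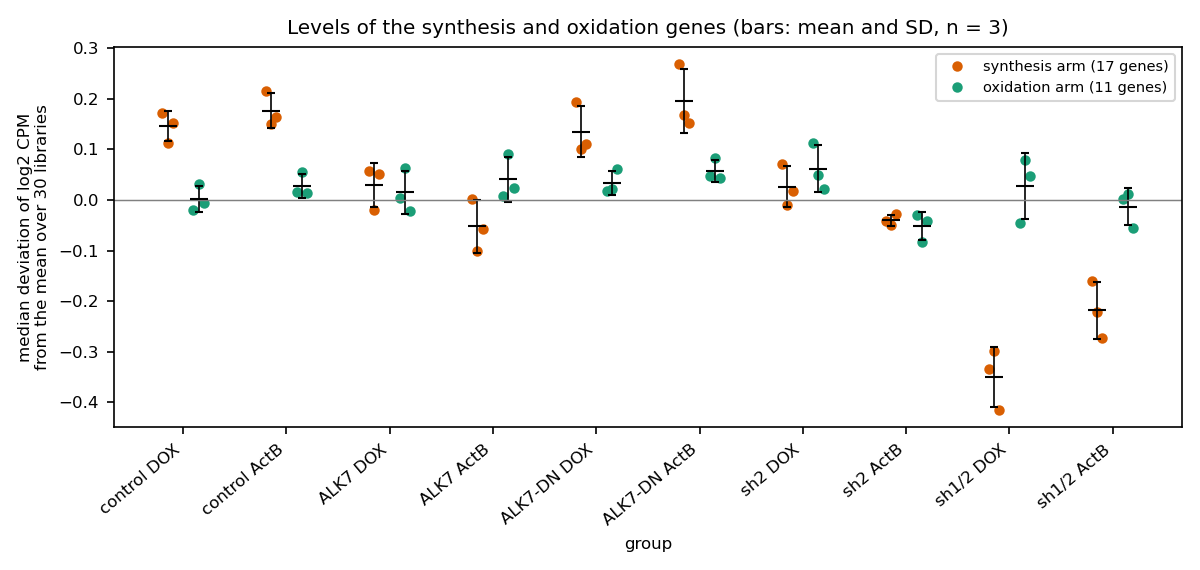
Median deviation of log2 CPM from each gene's mean over 30 libraries, for the 17 synthesis and the 11 oxidation genes in each library (points), by group (horizontal axis), with mean and SD of n = 3 as bars. Synthesis in sh1/2 cells averages -0.350 under DOX alone and -0.218 with activin B, below every other group, while oxidation group means stay between -0.0512 and 0.0616.

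With activin B present, 23 members were lower and 5 higher in sh1/2 than in control cells (18.3% and 16.9% of all genes). This comparison shares its activin B libraries with the responses above. Scd1 stood at -1.33 ± 0.07, Elovl6 at -1.30 ± 0.08, Scd2 at -1.15 ± 0.05, Ppargc1a at -1.88 ± 0.15 and Plin2 at -0.65 ± 0.07 (log2, SE; largest adjusted p = 5.55e-08). Cpt1a, higher under DOX alone, was here at -0.14 ± 0.05 (adjusted p = 0.0257) with overlapping libraries. Of the synthesis genes 12 of 17 were lower and 2 higher, of the oxidation genes 4 of 11 lower and 1 higher, with medians of -0.31 and -0.05. On leaving out the 3 libraries 25 of the 28 calls held, and those of Me1 (-0.26 before and -0.19 after), Elovl4 (-0.24 and -0.21) and Acadl (-0.21 and -0.15) were lost. Scd1 then stood at -1.31, Elovl6 at -1.22 and Scd2 at -1.17.

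**Figure D5:**
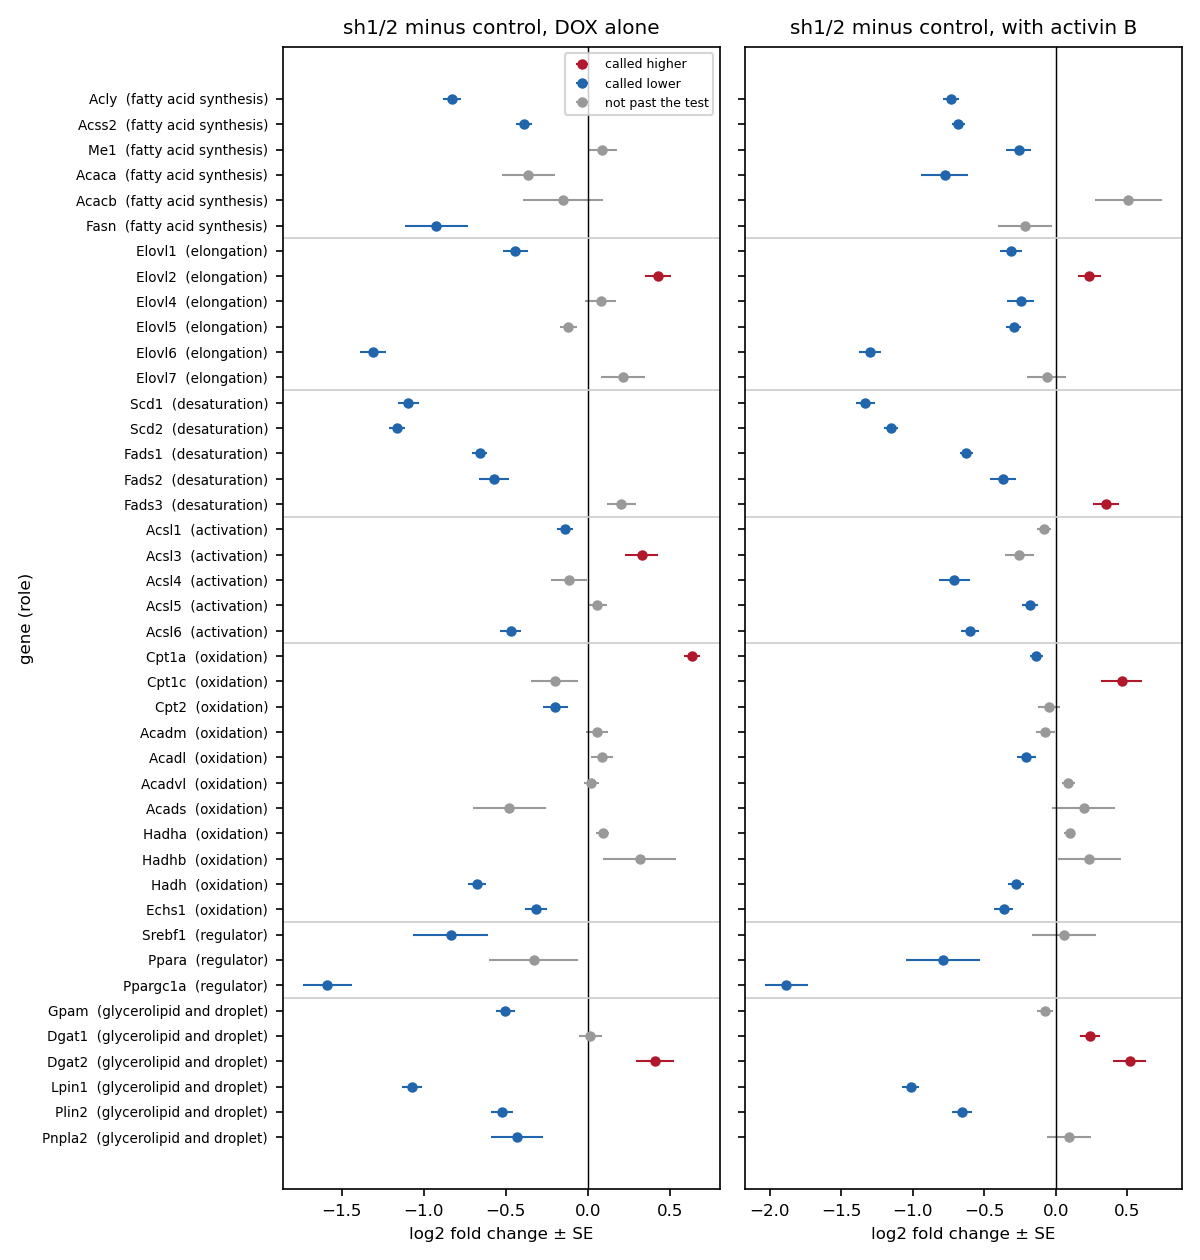
Log2 difference ± SE of sh1/2 from control cells (horizontal axes, which differ in range) for the 42 members (rows, by role), under DOX alone at left and with activin B at right, coloured by whether an adjusted p below 0.05 was reached. Scd1, Scd2, Elovl6 and Ppargc1a lie at or below -1.09 in both panels, and Cpt1a lies at 0.63 under DOX alone and -0.14 with activin B.

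The sh2 line was compared with control cells only under activin B, where both are of batch 1. There 12 members were called, all lower (6.18% and 3.06% of all genes were called lower and higher), and DESeq2 called 13 lower and 0 higher. Ppargc1a stood at -0.67 ± 0.14, Acsl6 at -0.63 ± 0.06, Cpt1a at -0.53 ± 0.05, Hadh at -0.49 ± 0.06 and Scd1 at -0.40 ± 0.06 (log2, SE; largest adjusted p = 0.0028), and these 5 calls held under every alternative run. Acly and Scd2 were lower too, at -0.25 ± 0.05 and -0.21 ± 0.05. The calls of Elovl5 and Elovl6 were lost without the 3 libraries (-0.16 and -0.31 before, -0.10 and -0.23 after).

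ALK7 cells were compared with control cells under both treatments. Under DOX alone the 3 members called were lower, Elovl6 (-0.31), Lpin1 (-0.22) and Scd2 (-0.21) (0.953% and 1.03% of all genes were lower and higher), and DESeq2 called 6 lower. On leaving out 1 library of either group, 0 or 1 member was called. With activin B all 11 called members were lower (2.44% of all genes were lower and 2.09% higher), where DESeq2 called 12 lower and 1 higher. Elovl6 stood at -0.61 ± 0.08, Ppargc1a at -0.58 ± 0.14, Scd1 at -0.53 ± 0.06, Acss2 at -0.39 ± 0.05 and Scd2 at -0.32 ± 0.05 (log2, SE; largest adjusted p = 0.0165). Of the 11 calls that of Scd1 alone held under every alternative run. ALK7-DN cells under DOX alone gave no call in edgeR or DESeq2, beside 0.589% of all genes lower and 0.378% higher in edgeR. At an unadjusted p below 0.05 in edgeR there were 8 members. The share of all genes at that threshold is not given here, so this count is not read as a result about the members.

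Genes of the same pathways outside the 42 were taken from 4 lists. In control cells 4 of 30 other oxidation genes were called with activin B, all of them higher, beside 10.7% of all genes higher and 9.66% lower, the background for each list here. Without the 3 libraries that stood apart 4 were higher and 3 lower, beside 11.2% of all genes higher and 9.23% lower. The other lists below then gave 2 rises and 4 falls of 28, 4 and 2 of 18, and 2 and 2 of 17. Abcd2, a peroxisomal fatty acid transporter, rose from 3.48 ± 0.146 to 5.49 ± 0.661 CPM (SD, n = 3; log2 0.66 ± 0.13), and Etfdh, which passes electrons from the dehydrogenases to ubiquinone, rose by 0.25 ± 0.06 on the log2 scale. Of 28 tested genes among 34 of other synthesis, 2 rose and 2 fell: Mbtps2, a protease that releases SREBP, by 0.38 ± 0.09, and G6pdx, which supplies NADPH, by 0.18 ± 0.05, while Fads6 fell (-0.27 ± 0.06). Of 18 tested of 28 other glycerolipid and droplet genes 4 rose and 2 fell. Mgll, the monoacylglycerol lipase, rose from 0.207 ± 0.109 to 1.59 ± 0.389 CPM (log2 2.87 ± 0.34), Fitm2, a droplet biogenesis protein, by 0.45 ± 0.05, and Lpin2 by 0.32 ± 0.05. Of 17 tested of 24 other genes of PPAR signalling and uptake 2 rose and 3 fell, with Acsf2, an acyl-CoA synthetase, at 0.93 ± 0.09, the fatty acid binding protein Fabp5 at 0.76 ± 0.13 and Acsm3 at -1.05 ± 0.26.

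In sh1/2 cells the same lists gave 6 rises and 8 falls of 30, 4 and 8 of 28, 4 and 1 of 18, and 4 and 3 of 17, beside 17.5% of all genes higher and 19.1% lower. With the 3 libraries left out they gave 0 and 2 of 30, 0 and 2 of 28, 2 and 0 of 18, and 1 and 1 of 17, beside 5.27% and 4.35% of all genes. Acsf2 stood at 1.01 ± 0.09, Fitm2 at 0.30 ± 0.05 and Mgll at 1.4 ± 0.47 (adjusted p = 0.024), with Mgll under DOX alone at 0.112 ± 0.0705 CPM. These values were 0.85 for Acsf2, 0.36 for Fitm2 and 3.00 for Mgll without the 3 libraries, where sh1/2 DOX is a single library. The Mgll value then rests on that library for a gene near the floor. Values that did not pass in sh1/2 cells with all libraries were 0.23 ± 0.13 for Fabp5, -0.31 ± 0.13 for Abcd2 and 0.10 ± 0.05 for Lpin2.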

How the data were processed

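Poly(A) RNA was sequenced from 30 libraries with the TruSeq stranded kit, per the labels' protocols. The deposited values used are the authors' whole-number counts per gene. The submitters' processing notes name bcl2fastq 2.17, cutadapt 1.4.2, HISAT2, featureCounts 1.4.4, edgeR and mm10; the strand setting and the treatment of reads matching several places are not given in the sources used here. Each of the 30 columns of the joint count table held the same values as the file of its own sample, and the authors' normalized table was not used.

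Counts were filtered with filterByExpr, scaled by TMM and fitted with 10 group means over all 30 libraries in edgeR 4.0.16 (R 4.3.3), and contrasts were tested two-sided with the quasi-likelihood F test, Benjamini-Hochberg adjusted over all 15627 genes at 0.05. Log2 CPM used a prior count of 2. Alternatives were DESeq2 1.42.0, no filter, RLE scaling, a GC correction through offsets, a replicate block, only the groups compared, leaving out each library, a batch term from the hairpin lines, the oxidation genes without Cpt1c, and leaving out the 3 libraries that stood apart. The fit was tested on simulated data. Exonic lengths, GC contents (for 15453 tested genes) and overlaps came from GENCODE M21 on GRCm38. Values in every library are given for members called the same way in at least 4 of the 5 responses, called with an absolute log2 change of at least 1 in any comparison or called in an interaction, and for Srebf1, Fasn, Acaca, Scd1, Scd2, Cpt1a, Hadha, Hadhb, Ppara and Ppargc1a, and the others by range. The members and lists were chosen with earlier results of these data known. Of the other pathway genes Hacd1, Hacd2, Hacd3, Gpat3 and Gpat4 are not in the table under those symbols, and for each list the 3 genes of smallest p in control cells were named, of which 1 is not reported here.

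Same-numbered libraries of the 2 treatments deviated together in ALK7 (correlations 0.209, 0.109 and 0.124), ALK7-DN (0.329, 0.102 and 0.177) and sh1/2 cells (0.325, 0.233 and 0.130), taken over genes. Correlations in control (0.309, 0.258 and 0.0794) and sh2 cells (0.231, 0.0932 and 0.185) overlapped these. The replicate numbers come from the labels, which tie them to no shared culture.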

Additional observations from a re-analysis of the deposited data

Results flagged for a closer look

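The response to activin B differed between sh1/2 and control cells for 9 members by the interaction test in edgeR, given here as the log2 response in sh1/2 cells minus that in control cells. It was lower in sh1/2 cells for Cpt1a (-0.77), Acsl4 (-0.59), Acsl3 (-0.58), Acss2 (-0.29), Acadl (-0.29) and Acsl5 (-0.24). It was higher in sh1/2 cells for Cpt1c (0.66), Gpam (0.43) and Hadh (0.40). Without the 3 libraries that stood apart by base composition, Cpt1a was the one of these 9 that still passed, at -0.87. The part of base composition in the other 8 was not tested beyond that comparison and the GC correction of the alternatives. Of 20 alternatives, the interaction call was lost under 2 each for Acss2, Hadh and Gpam, and under 6 for Acsl3. It was lost under 9 for Acsl4, 11 for Cpt1c and 13 each for Acsl5 and Acadl. The next values are of the sh1/2 response alone and not of the interaction. With the GC correction and all libraries, the sh1/2 response kept its calls of Acsl3 (-0.19), Acsl5 (-0.16), Acss2 (-0.13) and Hadh (0.55). It lost those of Acsl4 (-0.02) and Acadl (-0.0009), and Cpt1a was called lower (-0.19). Cpt1c (0.05) and Gpam (0.003) stayed without a call in that response.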

How the results depend on the processing

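Of the 164 calls over all members and comparisons, 79 held under every alternative run and 84 were lost under at least 1; 2 reversed. Hadh in ALK7-DN cells went from 0.28 to -0.18 with the batch term from the hairpin lines, and Acsl4 in sh1/2 cells from -0.37 to 0.043 without the 3 libraries that stood apart; the cause was not tested. Calls in control cells that held throughout were Acly, Me1, Elovl6, Cpt1a, Gpam and Plin2, 6 of 14, and in sh1/2 cells 6 of 20 held. Depth limits Ppara and Acacb.

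Counts of members called moved as follows. The share of all genes called under each setting is not set beside the counts in this section. A change among the members therefore cannot be told apart here from a change over all genes. Without the filter on low counts, the 14 of the control response became 7, the 3 of ALK7 against control under DOX alone 0, and the 11 with activin B 7. In DESeq2 the sh1/2 interaction went from 9 to 14, the ALK7 interaction from 0 to 1 and ALK7 under DOX alone from 3 to 6. With the GC correction, ALK7 and ALK7-DN under DOX alone gave 8 and 2 and the ALK7 interaction 1. In the sh1/2 response it kept the calls of Acly, Me1, Acss2, Elovl5, Elovl6, Scd1, Acsl3, Acsl5, Hadh, Fasn (0.27), Plin2 (0.29) and Lpin1 (0.18). It lost those of Elovl2, Elovl7, Acsl4, Acadl, Ppargc1a, Srebf1 (0.17), Dgat2 (0.10) and Pnpla2 (0.14). Cpt1a (-0.19), Fads1, Fads3, Acadvl and Dgat1 were called lower there as well. Fitted on the groups compared alone, fewer samples gave 6 in control, 7 in sh1/2, 1 in the sh1/2 interaction, 0 and 1 for ALK7 under DOX and with activin B, and 5 for sh2 with activin B. Without the 3 libraries the sh1/2 response had 6 and its interaction 2.

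The correlations of same-numbered libraries overlapped between lines, so they do not tell which lines were paired. The replicate block gave 16 calls in control, 21 in ALK7, 14 in ALK7-DN, 13 in sh2 and 26 in sh1/2 cells. It moved the sh1/2 interaction to 17, the ALK7 interaction to 2 and ALK7 under DOX alone to 6, and moved no other count by over 1.5 times. The replicate block with GC correction gave 22 in control, 21 in ALK7-DN, 21 in sh2, 2 and 1 in the ALK7 and sh2 interactions, and 13 and 3 for ALK7 and ALK7-DN under DOX alone.

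Leaving out 1 library at a time gave 7 to 12 calls in control cells (7 without DOX 3, 8 without DOX 2, 9 without activin B 3), 16 to 19 in ALK7, 9 to 11 in ALK7-DN, 8 to 11 in sh2 and 13 to 25 in sh1/2 cells (13 without DOX 3). The sh1/2 interaction ranged from 4 to 20: 4 without control DOX 1, control activin B 2 or sh1/2 DOX 1 or 3, 5 without sh1/2 activin B 2 or 3, 16 without control activin B 1 and 20 without sh1/2 DOX 2. ALK7 against control gave 0 to 1 under DOX alone and 5 to 10 with activin B (5 without ALK7 activin B 2, 7 without ALK7 activin B 1 or control activin B 3). For sh2 the range was 10 to 12, and for sh1/2 20 to 24 under DOX alone and 21 to 29 with activin B.

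The median synthesis minus median oxidation response of -0.0842 in control cells became 0.0409 without the 3 libraries and ranged from -0.209 to 0.0403 over single left-out libraries. In sh1/2 cells -0.0603 became 0.0327, with a range of -0.175 to -0.00736. In sh2 cells -0.00819 became 0.0193 with the GC correction, 0.0174 with the replicate block as well and -0.0367 without Cpt1c, with a range of -0.0690 to 0.00821. In ALK7 and ALK7-DN cells -0.102 and 0.0735 ranged from -0.146 to -0.0223 and from -0.0427 to 0.114.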
